A study of Mus musculus with 4 samples.

Results

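TREM2, SPP1, GPNMB, CD9, APOE and APOC1 are read together as the signature of lipid-associated macrophages in many tumors. Here the 6 genes were followed through human CD45+ cells of tumors grown in humanized mice. They were the rows of the feature lists whose symbol matched exactly, 6 of 36601 genes in each list, with the identifiers ENSG00000095970 (TREM2), ENSG00000118785 (SPP1), ENSG00000136235 (GPNMB), ENSG00000010278 (CD9), ENSG00000130203 (APOE) and ENSG00000130208 (APOC1). The tumors came from MDA-MB-231, a human triple-negative breast carcinoma line, injected into the mammary fat pad. The hosts were MISTRG mice, in which human M-CSF, GM-CSF and IL-3 support human myeloid cells, irradiated as pups and engrafted with CD34+ cells of human fetal liver. All 14 mice carried this graft and this tumor. By the hashtag names, 7 mice were untreated and 7 received maraviroc. The drug was given at 300 mg/l in the drinking water from day 21 for 10 days, and tumors were taken on day 31. Each mouse has 1 hashtag, and its cells shared 1 of 2 droplet reactions with those of other mice, 4 untreated and 3 maraviroc-treated in reaction 1 and 3 and 4 in reaction 2. No transcripts of the mouse host were analysed here, and the grafted blood system is of fetal origin.

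TREM2 is a lipid-sensing receptor of myeloid cells that signals through the adaptor TYROBP. SPP1 encodes osteopontin, a secreted ligand of CD44 and of integrins. GPNMB is a transmembrane glycoprotein of lysosomal and phagocytic compartments whose gene is a target of MITF and TFE3. CD9 is a tetraspanin of the plasma membrane and of exosomes. APOE and APOC1 are neighboring apolipoprotein genes whose products travel on lipoproteins, and macrophages secrete APOE when they export cholesterol.

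Within the limits on genes and mitochondrial share, 27645 barcodes of reaction 1 held a median of 2752 UMIs and 10161 barcodes of reaction 2 a median of 10742. Of these, 105 barcode sequences occurred in both reactions. Cells were gated by the UMIs of marker genes other than the 6, and 11183 macrophages were found in reaction 1 and 3117 in reaction 2. No gate took 11569 and 2022 barcodes. The macrophage gates held C1QA at 1694 per 1000000 UMIs in reaction 1, while CD3E was at 16.7, KRT8 at 3.17 and MS4A1 at 1.98. These genes are in the lists used for gating, so the gating by itself makes C1QA high and the others low. CD14 and CSF1R are in none of those lists. In macrophages of reactions 1 and 2, CD14 was at 1401 and 1385, against 82.3 and 28.1 in T cells. CSF1R was at 255 and 281 in macrophages, against 18.3 and 8.44 in T cells. NKG7, a gene of cytotoxic lymphocytes, was at 125 on the same scale in the macrophages of reaction 1 and at 12.8 in those of reaction 2, against 950 and 489 in T cells. SPP1 UMIs were also found outside macrophages, and 81.3% and 63.4% of T cells held one at median depths of 4156 and 7243 UMIs. The source of these UMIs was not tested. The share of macrophages with an SPP1 UMI was 98.2% and 96.8%, at median depths of 2910 and 13944. Levels are therefore given as counts per 1000000 UMIs of the group (CPM), beside those in T cells, with exact Poisson intervals that cover counting error only. They are taken over all barcodes of a gate, of which hashtag singlets were 4688 of the 11183 macrophages and 1284 of the 1973 T cells in reaction 1, and 2282 of 3117 and 2246 of 2587 in reaction 2.

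TREM2 was a macrophage transcript in both reactions. It stood at 90.5 CPM (95% interval 87.9 to 93.2) in macrophages of reaction 1 and at 68.4 (66.1 to 70.9) in reaction 2. T cells were at 4.2 and 1.63 CPM. Macrophages held 72.5% and 83.9% of all TREM2 UMIs, against 43.3% and 37.7% of all UMIs. Monocytes followed at 13.3 and 7.42 CPM, and cDC2 had 14.8 (8.48 to 24.1) and 6.93 (4.04 to 11.1), so the intervals of these neighbors overlapped. The carcinoma cells that had come through the sort had 9 TREM2 UMIs in reaction 1. That was 0.141% of the TREM2 UMIs, against 1.01% of all UMIs. T cells of reaction 1 held 0.738% of the TREM2 UMIs, against 9.49% of all UMIs. In reaction 2 the carcinoma cells had 0 TREM2 UMIs, with an upper limit of 3.72 CPM.

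SPP1 was also highest in macrophages, which were at 12843 CPM in reaction 1 and 10143 in reaction 2. T cells were at 829 and 340 CPM, which was a 15.5-fold and a 29.8-fold lower level. Among hashtag singlets, an alternative added after the data had been seen, macrophages were at 14383 and 10915 CPM and T cells at 478 and 162, so the folds became 30.1 and 67.2. Monocytes had 2463 and 957 CPM. The ratio of monocytes to T cells was 2.97 and 2.81 for SPP1, 3.17 and 4.55 for TREM2, and 1.22 and 2.05 for APOE. In singlets these ratios were 4.82 and 5.92 for SPP1, 4.06 and 6.36 for TREM2, and 2.20 and 3.58 for APOE. Carcinoma cells were at 1304 CPM in reaction 1 and at 120 in reaction 2, and the second value was below that of T cells of the same reaction. Mast cells had 4070 CPM in reaction 1 but 291 in reaction 2, and the singlets among them had 987 and 232 CPM.

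GPNMB reached 156 CPM (153 to 160) and 144 (140 to 147) in macrophages, with 17.3 and 9.8 in T cells, or 7.56 and 2.44 in singlet T cells. It was not limited to macrophages, because mast cells had 112 (75.2 to 159) and 89.8 CPM (62.2 to 126). Monocytes came next with 67.8 and 42.9 CPM. The mast cell values rest on 30 and 34 GPNMB UMIs.

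CD9 did not share this pattern. Mast cells held the highest level, 751 CPM (651 to 862) and 724 (641 to 815). The next classes were cDC2, with 211 (185 to 241) and 147 (132 to 163), and carcinoma cells, with 192 (168 to 219) and 204 (177 to 234). The intervals of cDC2 and carcinoma cells overlapped in reaction 1 and did not in reaction 2. Monocytes, at 105 and 81.1 CPM, stood above macrophages, at 94.3 and 67.8. NK cells had 72.1 and 60.4 CPM, and T cells 41.9 and 27.7. In macrophages lay 44.0% and 38.1% of all CD9 UMIs, close to their share of all UMIs.

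APOE and APOC1 were sparse. APOE was at 24.5 CPM (23.1 to 25.9) and 19.5 (18.2 to 20.8) in macrophages, and APOC1 at 32.2 (30.7 to 33.8) and 28.1 (26.5 to 29.6). In T cells APOE had 2.05 and 0.726 CPM and APOC1 3.75 and 1.68. Mature DC were the other class with APOE, at 32.5 CPM (18.2 to 53.5) and 15.8 (9.91 to 23.9), intervals that overlapped those of macrophages in both reactions. APOC1 was highest in mast cells. Its interval lay above that of macrophages in reaction 1, at 63.2 CPM (36.8 to 101), and overlapped it in reaction 2, at 42.3 (24.2 to 68.6). The mature DC held 15 and 22 APOE UMIs and the mast cells 17 and 16 APOC1 UMIs. Mature DC also held APOC1, with 8 UMIs in reaction 1 and 46 in reaction 2. These were 0.318% and 2.63% of the APOC1 UMIs, against 0.392% and 1.15% of all UMIs.

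**Figure D1:**
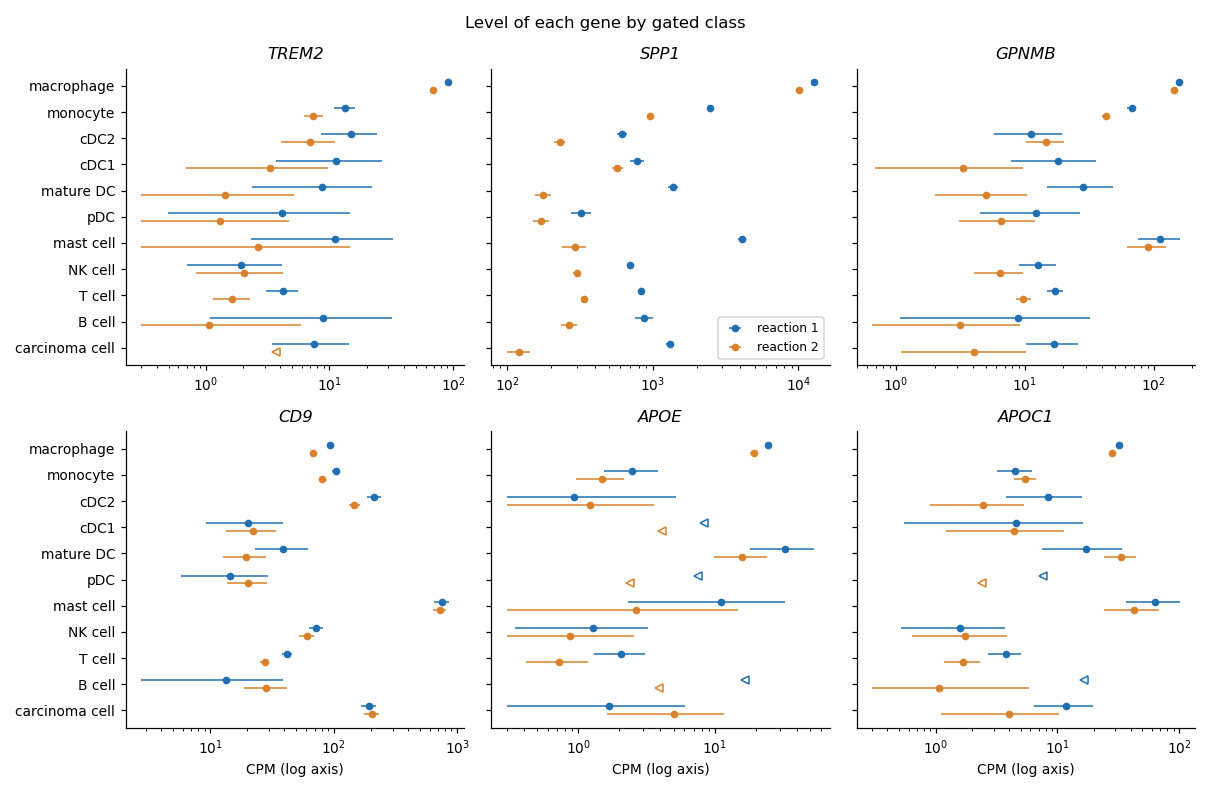
Level of each gene in CPM (log axis) in 11 gated classes, with 1 point per reaction, exact 95% Poisson intervals (drawn no lower than 0.3), and an open triangle at the upper limit of a class with 0 UMIs. Macrophages lead for TREM2 and SPP1, whereas CD9 peaks in mast cells at 751 and 724 CPM.

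Across the 36 points formed by the classes and macrophage states of both reactions, the genes whose level on the log2(CPM + 1) scale was most like that of each member were listed. The points share libraries, and the state gates share cells, so Pearson's r is a description. They mix macrophage gates with other classes. A high r can therefore reflect the contrast of macrophages with other cells and not a shared course over the states. For TREM2 they were CD14 (0.97), RNASE1 (0.96) and SPP1 (0.96). For SPP1 they were RNASE1 (0.98), TREM2 (0.96) and CCL13 (0.96). GPNMB was most like SLCO2B1 (0.92), MPP1 (0.92) and STAB1 (0.92), all above its r with TREM2 (0.88). CD9 was most like PAQR5 (0.88), RBKS (0.85) and VAPA (0.84), and its r was 0.18 with TREM2 and 0.22 with SPP1. APOE was most like EYA2 (0.90), CREG1 (0.90) and CD209 (0.89), and APOC1 like CREG1 (0.88), APOE (0.88) and MITF (0.88).

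Monocytes were then compared with macrophages in sums per mouse, with each mouse as its own control. Over 14 mice, 5 members were lower in monocytes and CD9 was higher. In this comparison 64.7% of the 10734 genes tested were called by edgeR's quasi-likelihood test, so 6 of 6 members called is to be read against a high background. TREM2 was at 2.68 to 23.1 CPM in monocytes (median 9.12) and at 41.5 to 149 in macrophages (median 82.2), with no overlap. Its log2 fold change was -2.93 (SE 0.17, edgeR adjusted p = 6.46e-13). SPP1 fell by 2.96 (SE 0.19) and GPNMB by 1.54 (SE 0.15) on the log2 scale, and both were lower in 14 of 14 mice. APOE fell by 3.88 (SE 0.27) and APOC1 by 2.46 (SE 0.20), also in 14 of 14. In monocytes APOE was near the floor, with a median of 1.12 CPM (0 to 8.17) over mice. All gated monocytes together held 21 and 26 APOE UMIs, so the size of its fall rests on few UMIs. CD9 was higher in 12 of 14 mice, with a median of 98.3 CPM in monocytes and 83.1 in macrophages. Its ranges overlapped, 58.8 to 151 against 38.1 to 134, and the log2 fold change was 0.40 (SE 0.10, edgeR adjusted p = 0.00183). With cells thinned to 2000 UMIs and gated anew on the thinned counts, the CD9 call was lost (0.24, edgeR adjusted p = 0.143).

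Of the wider pathway, PLTP, a phospholipid transfer protein, fell by 4.92 in monocytes on the log2 scale, and NR1H3, the oxysterol receptor LXRα, changed by -2.14. SORL1 (2.50), a receptor that binds APOE, was higher. Of 8 osteopontin receptor genes, 6 were lower, led by ITGA9 (-3.97) and ITGB5 (-3.52), and CD44 was higher (1.24). In the TREM2 signaling list 6 of 10 genes were higher and 3 lower. The medians were -0.74 for the apolipoprotein receptor list and 0.29 for the TREM2 signaling list, against -0.03 for all genes.

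The macrophage states, 6 in all, were gated by genes other than the members. Each was set against the reference macrophages, which were below the gate of every state. The comparisons share these reference cells. GLUT1 macrophages were gated by SLC2A1, which encodes the glucose transporter GLUT1, and by ADM, HILPDA and NDRG1, genes known for their response to low oxygen. In 14 mice, with 11 to 66 GLUT1 macrophages each, SPP1, GPNMB, CD9, APOE and APOC1 were higher and TREM2 was not called. Of 7407 genes tested 27.6% were called, 1212 higher and 832 lower, and 5 of 6 members were called. The median log2 fold change was 1.15 over the members and -0.02 over all genes.

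GPNMB ranged from 340 to 1004 CPM in GLUT1 macrophages (median 502) and from 68.3 to 182 in reference macrophages (median 137). The ranges did not overlap, and every mouse showed the rise. The log2 fold change was 2.19 (SE 0.11, edgeR adjusted p = 4.53e-14), 4.57-fold, with 2.29 within reaction 1 and 2.09 within reaction 2. For shares, cells kept their gates from full depth and were thinned to 2000 UMIs. Then 47.1% and 53.4% of GLUT1 macrophages held a GPNMB UMI, against 20.3% and 20.1% of reference macrophages. In T cells the thinned share was 3.34% and 0.979%.

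SPP1 rose from a median of 10552 CPM (3501 to 20055) to 21175 (9803 to 37596). It was higher in 14 of 14 mice, with overlapping ranges and a log2 fold change of 1.20 (SE 0.09, edgeR adjusted p = 1.74e-10). CD9 rose from a median of 86.0 (27.6 to 130) to 133 CPM (82.6 to 348), again in 14 of 14 mice, by 1.10 (SE 0.13, edgeR adjusted p = 2.07e-07). With the GLUT1 and macrophage gates both set at double the level, and the reference cells kept as they were, 3 mice remained. In them CD9 had a log2 fold change of -0.01 and was not called.

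TREM2, in contrast, had a median of 77.7 CPM (34.8 to 158) in reference and 75.2 (22.7 to 116) in GLUT1 macrophages. It was higher in 5 mice and lower in 9. The log2 fold change was 0.05 (SE 0.13, edgeR adjusted p = 0.837), and within the reactions it was 0.04 and 0.04. The changes of GPNMB, SPP1 and CD9 were set beside that of TREM2 in the same mice, as a description chosen after the values had been seen. The change of GPNMB exceeded that of TREM2 by 2.17 ± 0.70 (SD, n = 14 mice) on the log2 scale, in 14 of 14 mice. SPP1 exceeded TREM2 by 1.17 ± 0.54 (SD, n = 14 mice), also in 14 of 14, and CD9 by 1.08 ± 0.77 (SD, n = 14 mice) in 12.

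The apolipoproteins were more uneven. APOE was at 0 to 153 CPM in GLUT1 macrophages (median 40.4) and at 8.67 to 33.5 in reference macrophages (median 18.7), and 10 of 14 mice were higher. Its log2 fold change of 1.28 (SE 0.34, edgeR adjusted p = 0.00636) was not called by DESeq2 (0.93, adjusted p = 0.125) nor within reaction 2 (1.11, edgeR adjusted p = 0.158). APOC1 was higher in 10 of 14 mice, by 0.89 (SE 0.19, edgeR adjusted p = 0.0011), and was not called within reaction 2 (0.70, edgeR adjusted p = 0.117).

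**Figure D2:**
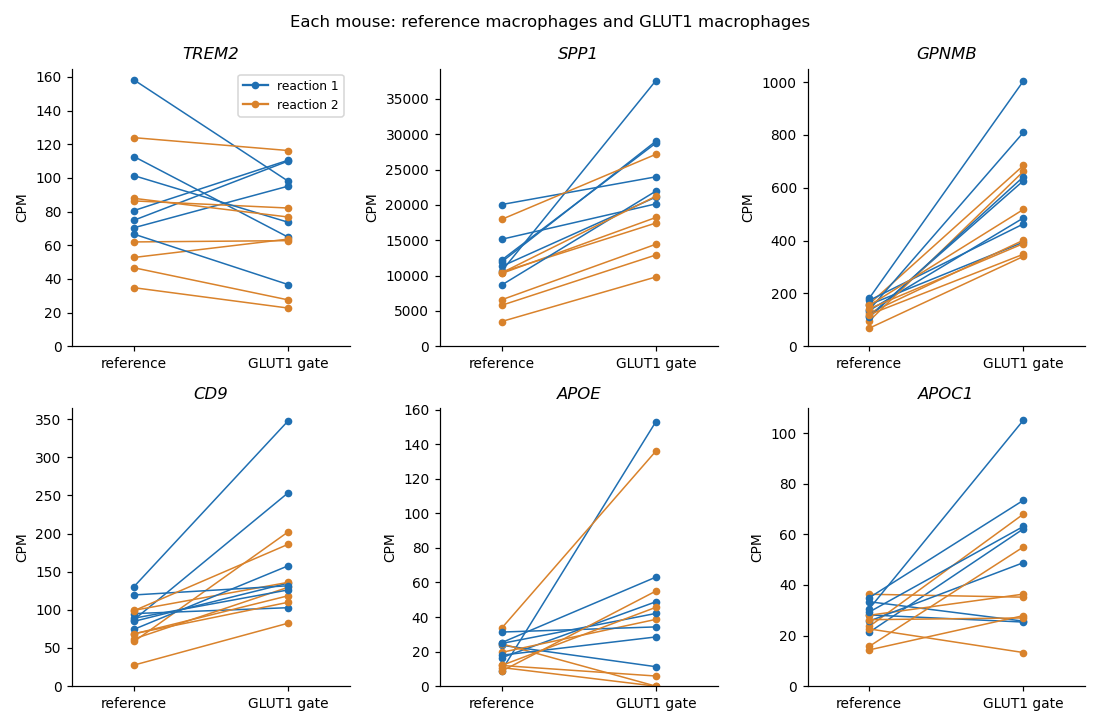
Each line joins the reference and the GLUT1 macrophages of 1 mouse (CPM, linear axes from 0, colors for the reactions). GPNMB, SPP1 and CD9 rise in 14 of 14 mice, while TREM2 rises in 5 and falls in 9.

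The other genes of lipid handling in these cells were read from fixed lists. Of 11 lipid-associated macrophage genes tested, 8 were higher, with PLIN2, the coat protein of lipid droplets, at 2.31 and CSTB at 1.45 on the log2 scale, and 1, the scavenger receptor CD36, was lower (-0.81). Of 8 genes tested from the list of apolipoprotein receptors and lipid efflux, 4 were higher and 2 lower. ABCA1 (1.25) and ABCG1 (1.13), the pumps that load cholesterol onto lipoproteins, were higher, as were SCARB1 (1.16) and MYLIP (1.36). The lysosome list of 12 genes also holds the transcription factors MITF, TFEB and TFE3. It shares CTSB, CTSD, CTSL, CD63 and LIPA with the lipid-associated list, so the counts of these lists are not separate. Of the lysosome list 7 genes were higher and none lower, led by MITF (1.33) and CTSD (1.10). Among 10 TREM2 signaling genes, 5 were higher, such as PIK3R1 (0.51) and SYK (0.43), and MS4A6A was lower (-0.46). All 7 genes of a heat shock and immediate early list (HSPA6, HSPA1A, HSPA1B, DNAJB1, BAG3, FOS and JUN) were higher too. HSPA6 was at 1.84 and DNAJB1 at 1.75, and the median of the list was 1.35. The part of these genes in the members' rise was not tested.

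The MT1G macrophages, gated by 4 metallothionein genes, held the second broad rise. Of the members 5 were higher and CD9 was not called, where 16.1% of 8188 genes were called. APOC1 went from a median of 27.2 CPM (14.3 to 36.3) to 50.4 (0 to 218), higher in 12 of 14 mice, with a log2 fold change of 1.33 (SE 0.24, edgeR adjusted p = 0.00062). GPNMB rose from a median of 137 to 211 CPM in 12 of 14 mice, by 0.73 (SE 0.13). APOE rose by 0.90 (SE 0.22) in 11 mice. It was not called within reaction 2 (0.67, edgeR adjusted p = 0.226), nor was APOC1 within reaction 1 (0.94, edgeR adjusted p = 0.0503). SPP1 (0.41, SE 0.13, edgeR adjusted p = 0.032) and TREM2 (0.37, SE 0.13, edgeR adjusted p = 0.044) were close to the threshold. Within reaction 1 the SPP1 difference was 0.04 and within reaction 2 it was 0.76, and TREM2 was called in neither. CD9 was -0.15 in reaction 1 and 0.74 in reaction 2, where it was called (edgeR adjusted p = 0.022). These sums rest on a median of 16 cells per mouse. With the MT1G and macrophage gates both doubled, no member was called in the 3 mice that remained. Of the lipid-associated list 8 of 11 genes were higher and none lower, led by FBP1 (1.62), while 4 of 7 osteopontin receptor genes were lower, led by ITGA9 (-1.33).

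The LYVE1 macrophages were gated by LYVE1, CCL18 and FOLR2 together, and the members split them. In 13 mice, where 29.7% of 9425 genes were called, SPP1 (0.42, SE 0.12), GPNMB (0.55, SE 0.09) and APOE (1.25, SE 0.32) were higher. GPNMB was higher in 12 of 13 mice, with a median of 192 CPM against 138. SPP1 had a median of 18749 CPM against 10620, yet it was higher in 8 mice and lower in 5. Its log2 fold change was 0.72 within reaction 1 and 0.05 within reaction 2. Within reaction 2 by itself GPNMB (0.36, edgeR adjusted p = 0.0845) and APOE (0.99, edgeR adjusted p = 0.172) were not called. CD9 was lower in 11 of 13 mice and missed the threshold (-0.30, edgeR adjusted p = 0.0588).

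TREM2 was not called in the whole gate (0.23, SE 0.15, edgeR adjusted p = 0.267). Within reaction 1 it was higher (0.52, edgeR adjusted p = 0.023) and within reaction 2 it was at -0.17. With the LYVE1 and macrophage gates both doubled, TREM2 turned to -1.16 and SPP1 to -0.40, both called. The reference cells were kept as they were, and the part of each gate was not tested. The LYVE1 gate was then taken apart by its genes, after these values had been seen. Cells of the gate with 3 or more FOLR2 UMIs, 760 and 328 macrophages, had 123 and 56.8 CPM of TREM2 and 47.9 and 24.9 of APOE. Those with 3 or more LYVE1 UMIs, 105 and 133 macrophages, had 27.3 and 13.3 CPM of TREM2, from 28 and 27 UMIs. Their APOE was at 3.9 and 1.97 CPM and their APOC1 at 5.85 and 2.95, from 4 to 6 UMIs each, near the levels in T cells. A cell can be in both sets. Their median depths were 5129 and 13905 UMIs for FOLR2 and 7761 and 14647 for LYVE1.

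Against the reference macrophages, the LYVE1 UMI cells of 5 mice had lower TREM2 (log2 fold change -2.78, SE 0.32, edgeR adjusted p = 1.25e-05), SPP1 (-0.91, SE 0.15) and CD9 (-1.46, SE 0.31), where 16.0% of 9420 genes were called. APOE and APOC1 were called lower as well, with fitted values that rest on few UMIs. GPNMB was not called (0.10, SE 0.21, edgeR adjusted p = 0.818). The FOLR2 UMI cells of 13 mice had higher SPP1 (0.48), GPNMB (0.50) and APOE (1.38), lower CD9 (-0.35) and TREM2 at 0.28 (edgeR adjusted p = 0.215), where 31.7% of 9332 genes were called. In the CCL18 UMI cells of 12 mice TREM2 (-1.11) and CD9 (-0.76) were lower and GPNMB higher (0.66), where 15.5% of 9022 genes were called. The difference between these sets was not tested by itself. In the whole gate PLTP (2.18), the tetraspanin TSPAN4 (1.54), CD36 (1.19) and CTSL (1.13) were higher and FBP1 was lower (-1.14). Of 12 genes of the lysosome list 8 were higher and 2 lower. Among 7 osteopontin receptor genes 4 were lower and none higher, with ITGA4 at -0.52.

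The remaining states moved fewer members. In CXCL10 macrophages, gated by the interferon-induced chemokines CXCL9, CXCL10 and CXCL11, CD9 alone was called, where 25.7% of 8227 genes were. It was lower in 12 of 14 mice, with a median of 55.2 CPM against 86.0 and a log2 fold change of -0.46 (SE 0.13, edgeR adjusted p = 0.011). Within each reaction by itself it was not called (-0.40 and -0.52). APOE had 0.54 (SE 0.24) there and missed the threshold (edgeR adjusted p = 0.104). CD36 (-0.76) and PLIN2 (-0.68) were lower in the same cells, and CD81 (0.62) and CD63 (0.44), which are tetraspanins like CD9, were higher. Of 11 lipid-associated macrophage genes tested there, 2 were higher and 3 lower, with a median of 0.05. For the lysosome list of 12 genes, 5 were higher and 2 lower.

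In cycling macrophages CD9 was lower in 12 of 13 mice (-0.47, SE 0.11, edgeR adjusted p = 0.00107) and GPNMB in 10 of 13 (-0.36, SE 0.12, edgeR adjusted p = 0.0232), where 39.7% of 9244 genes were called. Within reaction 2 by itself GPNMB was not called (-0.20, edgeR adjusted p = 0.488). TREM2 (-0.13) and SPP1 (0.06) were not called. APOE had 0.48 (SE 0.33) and was not called, and its sign differed between reactions, with -0.40 and 1.21. Within reaction 2 by itself it was called (edgeR adjusted p = 0.040), and within reaction 1 it was not (edgeR adjusted p = 0.428). Of 12 genes of the lysosome list 6 were lower and none higher. The largest falls were those of the transcription factors TFEB (-0.64) and MITF (-0.44). In inflammatory macrophages, gated by IL1A, CCL20 and IL6, 0 of 6 members were called over 11 mice, where 9.47% of 9077 genes were. Their log2 fold changes lay between -0.05 (APOE, SE 0.33) and 0.19 (APOC1, SE 0.23). FBP1 (1), CSTB (0.67) and CD44 (0.96) were higher in these cells and ITGA9 (-0.67) was lower.

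**Figure D3:**
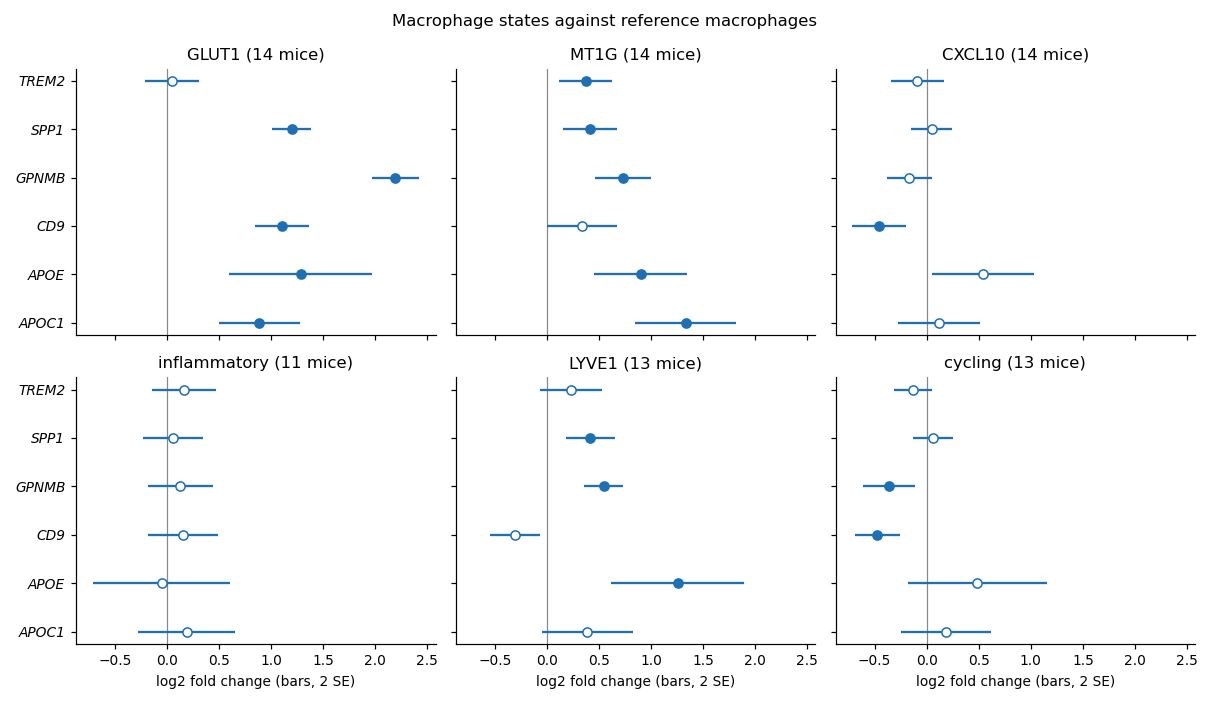
Log2 fold change of each gene in 6 macrophage states against the reference macrophages, with bars of 2 standard errors and filled points where the edgeR adjusted p is under 0.05. In the GLUT1 state 5 genes lie right of 0 and TREM2 sits at 0.05, and CD9 is lower in the CXCL10 and cycling states.

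It was then asked which members were in the same macrophages. Since a deeper cell shows more of every gene, cells gated at full depth were thinned to 2000 UMIs. This left out 3501 macrophages of reaction 1 and 11 of reaction 2. Shares by reaction are over all barcodes of the gate, hashtag singlets or not, and values by mouse are over singlets only. SPP1 was detected in 96.0% and 82.5% of thinned macrophages. Of the other 5 members, 54.1% and 59.2% of thinned macrophages showed none, 33.3% and 30.5% showed 1, and 2.23% and 1.61% showed 3 or more. In GLUT1 macrophages 3 or more were seen in 6.02% and 4.05%, and in T cells in 0.0631% and 0.0783%. At this depth a member that is not detected may still be expressed.

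APOE and APOC1 had the highest median odds ratio of the 15 pairs. Of thinned macrophages with an APOE UMI, 17.6% in reaction 1 and 27.5% in reaction 2 also held APOC1, against 4.62% and 4.20% of those without. Both were seen together 3.48 and 5.73 times as often as the product of their shares. By mouse the odds ratio had a median of 6.83 (0.439 to 20.6) and was above 1 in 13 of 14 mice, from 30 cells with both over all mice. A count of 0.5 was added to each cell of the 2 by 2 table. In 2 mice no cell held both, and in 1 of them, with 2.95, only the added count puts the ratio above 1.

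TREM2 and SPP1 had odds ratios above 1 in 14 of 14 mice, with a median of 3.02 (1.22 to 33.8). So had SPP1 and GPNMB, with 2.61 (1.30 to 26.7). In reaction 1, where 96.0% of thinned macrophages held SPP1, these ratios rest on the few cells without it. An SPP1 UMI was also in 54.6% and 26.0% of thinned T cells. Because nearly every macrophage holds an SPP1 UMI, the thinned macrophages were also divided at their median SPP1 count, 16 and 11 UMIs. Above it 19.4% and 17.2% of macrophages held TREM2, against 9.77% and 5.77% at or below it. GPNMB was in 27.6% and 31% against 16.5% and 14.7%, and CD9 in 17.7% and 14.6% against 14.6% and 8.84%. TREM2 and GPNMB were seen together 1.19 and 1.25 times as often as the product of their shares, with a median odds ratio of 1.54, above 1 in 12 of 14 mice. The pair with the lowest median was CD9 and APOE (1.30), above 1 in 10 mice. Every pair thus had a median above 1, and pairs of other genes were not set beside them. At the cells' own depth the odds ratio of TREM2 and GPNMB was 2.65 in reaction 1, against 1.31 after thinning.

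**Figure D4:**
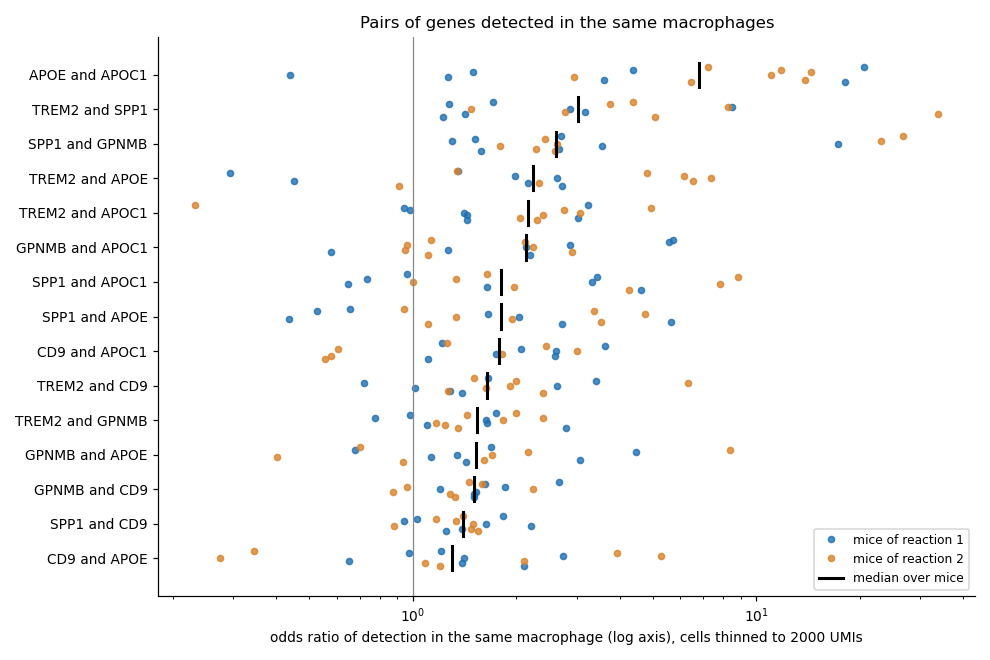
Odds ratio of detecting both genes of a pair in the same macrophage (log axis), 1 point per mouse, with cells thinned to 2000 UMIs and a black bar at the median over 14 mice. APOE and APOC1 lead with a median of 6.83, and CD9 and APOE are last with 1.30.

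APOE was concentrated in few cells. Macrophages with 3 or more APOE UMIs were 111 in reaction 1 and 85 in reaction 2, over all barcodes of the gate. They held 50.7% and 64.9% of the macrophage APOE UMIs. The hashtag singlets among them came from all 14 mice. Barcodes that were not singlets were kept, and their part in the levels below was not tested. The highest cells had 31 and 33 APOE UMIs. In these macrophages APOC1 was at 225 and 193 CPM against 27.5 and 22.6 in the rest, TREM2 at 197 and 127 against 87.9 and 66.5, and GPNMB at 320 and 249 against 152 and 140. SPP1 was at 23326 and 14363 CPM against 12584 and 10005. Their median depth of 8571 and 16026 UMIs was above that of the other macrophages, 2875 and 13877, and the part of depth in these levels was not tested. They fell into the LYVE1 gate in 23.4% and 17.6% of cases, against 9.47% and 11.4% of the rest. The GLUT1 gate took 9.01% and 10.6% against 5.0% and 7.85%, and the MT1G gate 11.7% and 8.24% against 5.22% and 6.04%. For the cycling gate it was 4.50% against 10.5% in reaction 1 and 18.8% against 7.62% in reaction 2. Shares in the CXCL10 and inflammatory gates also went opposite ways between the reactions.

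Lastly, maraviroc-treated and untreated mice were compared in the sums over all macrophages of each mouse, 104 to 1093 cells, with the reaction as a term. No member was called, and neither was any of the 12030 genes tested (0.0%) by edgeR's quasi-likelihood test, with 410 genes at an unadjusted p under 0.05. DESeq2 called 0 as well, with 330 at an unadjusted p under 0.05. In simulated counts with the same means and sizes, the same fit found 84.5% of 200 genes changed by 1 on the log2 scale. The members' own estimates ran from -0.39 (TREM2) to 0.28 (APOE). Changes of that size were not simulated, so the share found does not apply to them.

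TREM2 was at 49.1 to 155 normalized CPM in untreated mice (median 92.6) and at 42.5 to 111 in maraviroc-treated mice (median 72.3). The groups overlapped, and 6 of 7 treated mice lay below the untreated median. The means were 96.9 ± 33.1 (SD, n = 7) and 71.0 ± 23.3 (SD, n = 7). The log2 fold change was -0.39 (SE 0.19), with an unadjusted p of 0.0519 and an adjusted p of 1 by edgeR, and it was -0.22 within reaction 1 and -0.57 within reaction 2.

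SPP1 averaged 13519 ± 4097 in untreated and 11147 ± 3941 in treated mice (SD, n = 7 each). Its log2 fold change was -0.25 (SE 0.19), 0.01 within reaction 1 and -0.51 within reaction 2. GPNMB was at 176 ± 36.7 and 154 ± 31 (SD, n = 7 each), with a log2 fold change of -0.14 (SE 0.13). CD9 was at 87.2 ± 31.8 and 80.6 ± 14.6 (SD, n = 7 each), with -0.04 (SE 0.17). APOC1 was at 30.2 ± 6.5 and 29.3 ± 6.0 (SD, n = 7 each), with 0.02 (SE 0.14). The groups overlapped for each of these genes.

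APOE was at 13.6 to 31.2 normalized CPM in untreated (median 26.3) and at 16.9 to 50.3 in treated mice (median 23.0). These medians, like the means and SDs of the other members, pool both reactions, whereas the fit has the reaction as a term. Untreated mice averaged 28.6 for APOE in reaction 1 and 15.2 in reaction 2. The highest value was that of maraviroc-treated mouse 3 of reaction 2, where 1 of 104 macrophages gave 30 of the 77 APOE UMIs. The log2 fold change was 0.28 (SE 0.21) with this mouse and 0.11 without it. It was -0.11 within reaction 1 and 0.72 within reaction 2, and the difference between the reactions, 0.83 (SE 0.37), was not called (edgeR adjusted p = 0.538). Unadjusted intervals of 2 SE on either side reached from -0.77 to -0.02 for TREM2 and from -0.63 to 0.13 for SPP1. They are approximate and do not replace the edgeR test, in which the unadjusted p of TREM2 was 0.0519.

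**Figure D5:**
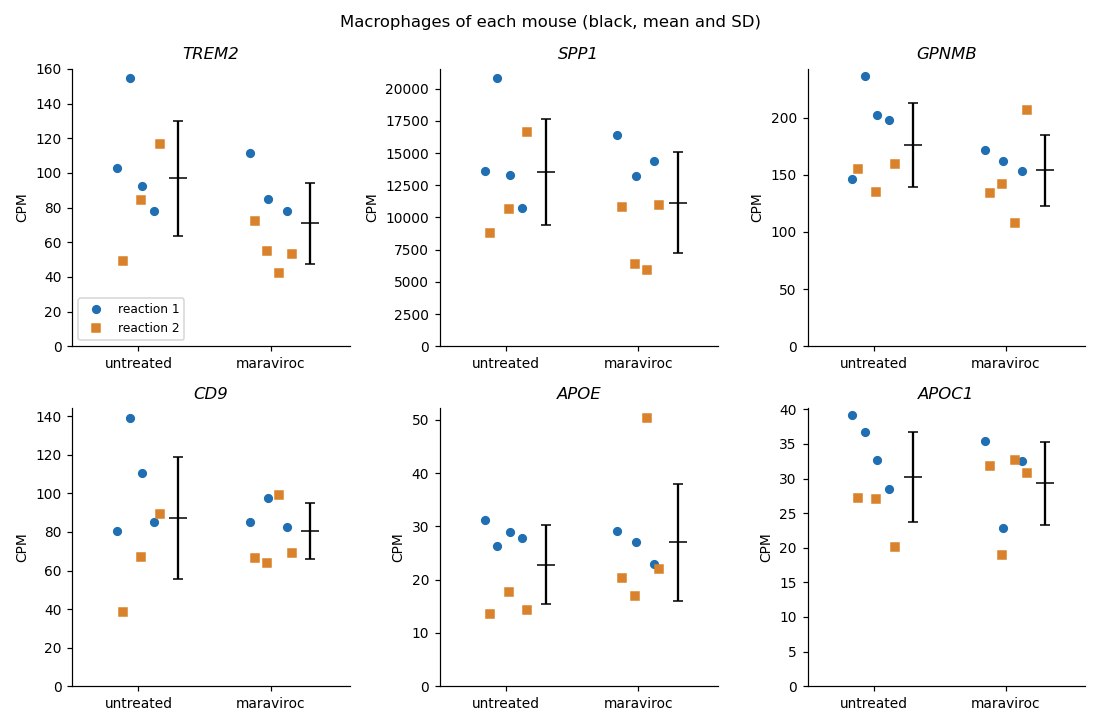
Normalized CPM of each gene in the macrophages of 7 untreated and 7 maraviroc-treated mice, with 1 point per mouse, colors for the reactions, and the mean and SD in black. The groups overlap in every panel, and 1 treated mouse of reaction 2 stands at 50.3 for APOE.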

How the data were processed

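Human CD45+ cells sorted from MDA-MB-231 tumors of MISTRG mice were profiled by droplet RNA-seq with hashtag antibodies in 2 reactions. The deposited matrices hold whole UMI counts per gene or hashtag and barcode, which the authors made with Cell Ranger 9.0.1 on GRCh38 and processed further with Seurat 5.1.0, per the submitters' processing notes. No normalization had been applied to them.

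Barcodes with more than 600 and up to 6000 genes and under 12.5% mitochondrial UMIs were kept. This is 1 common limit for all barcodes, whereas the study filtered each mouse sample by itself. Mice were assigned by HTODemux (Seurat 5.3.0, positive quantile 0.99), and only hashtag singlets entered tests. Treatment was read from the hashtag names, as no sample label states it. Doublets of cells of 1 mouse were not removed.

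Cells were gated by the summed UMIs of marker genes per 10000 UMIs, with at least 3 UMIs (macrophages 15 or more, monocytes 40 or more, GLUT1 state 10, MT1G and CXCL10 states 15, LYVE1 state 8, inflammatory state 5, cycling state 10). A cell could pass more than 1 state gate, as 866 of 14300 macrophages did. The gate levels were set after the distributions had been seen, and the members and gene lists were chosen with earlier results of these data known.

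Counts were summed per mouse (10 cells or more) and tested over all genes with edgeR 4.0.16 (TMM, filterByExpr, quasi-likelihood, Benjamini-Hochberg, threshold 0.05), with the reaction as a term for treatment and the mouse as a block for states. All 6 members passed the filter in all 8 comparisons. Mice of 1 reaction share its library, so p-values measure the spread between mice within shared reactions. Each SE beside an edgeR value is the absolute log2 fold change divided by the square root of that test's F statistic. DESeq2 1.42.0 was an alternative. The fits were tested on simulated data. With 95% intervals, exact Poisson limits were used. Named genes were the members, the 3 genes most like each (among those reaching 20 CPM in a class or state), and up to 4 genes of each list with the largest changes past the threshold, and not every gene that this rule names is reported here. No sequences or coordinates are given, because no human reference was used here.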

Additional observations from a re-analysis of the deposited data

Results flagged for a closer look

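In the macrophages of maraviroc-treated mouse 3 of reaction 2, APOE was at 50.3 normalized CPM and lay apart from the other 6 treated mice by Dixon's ratio test for 7 samples. Chance gives such a gap in about 1 in 20 groups, and 12 groups were looked at for 6 genes. This mouse had 104 macrophages and 77 APOE UMIs, of which 1 cell held 30. No member's response to maraviroc differed between the reactions past the threshold.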

How the results depend on the processing

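Of 70 recomputed counts of called genes, 47 lay within 1.5 times the first value and 23 did not. The 47 include every maraviroc count, which was 0 at first and stayed at 0. All 23 were counts for states or monocytes. With each of the 14 mice left out in turn, 0 genes passed for maraviroc, and the log2 fold change lay between -0.49 and -0.23 for TREM2, -0.323 and -0.0816 for SPP1, -0.244 and -0.0808 for GPNMB, -0.171 and 0.0608 for CD9, 0.109 and 0.388 for APOE, and -0.0584 and 0.1 for APOC1. For maraviroc, reaction 1 by itself gave 0.00944 for SPP1, -0.114 for APOE and -0.147 for APOC1, and reaction 2 gave 0.155 for CD9. APOC1 was at -0.0321 with no reaction term and -0.0242 with a stricter hashtag quantile. Thinned cells, gated anew on their thinned counts, hold fewer UMIs by construction. They gave 588 called genes for the GLUT1 gate, 440 for MT1G, 638 for CXCL10 and 575 for LYVE1. Cycling cells had 918 and monocytes 2972, and TREM2 was at 0.139 in the CXCL10 gate. Gates of doubled threshold, with the macrophage gate doubled too and the reference cells kept as they were, hold fewer cells. They gave 234 called genes for GLUT1, 83 for MT1G, 1712 for LYVE1 and 2341 for cycling cells. Under them TREM2 was at -0.00884 and CD9 at -0.0109 in the GLUT1 gate, CD9 at -0.212 in the MT1G gate and SPP1 at -0.288 in cycling cells. In the LYVE1 gate of doubled threshold TREM2 was at -1.16, SPP1 at -0.396, APOE at -0.0498 and APOC1 at -0.737. Reaction 1 by itself gave 1201 called genes for GLUT1, 221 for MT1G, 884 for CXCL10, 167 for the inflammatory gate, 1673 for LYVE1 and 2215 for cycling cells. There CD9 was at -0.146 in MT1G and -0.14 in inflammatory cells, TREM2 at 0.0907 in CXCL10 cells, and in cycling cells SPP1 was at -0.0121 and APOE at -0.401. Reaction 2 by itself gave 843 called genes for GLUT1, 449 for MT1G, 870 for CXCL10 and 1257 for LYVE1. There SPP1 was at -0.131 in CXCL10 and -0.145 in inflammatory cells, APOE at 0.19 in inflammatory cells and TREM2 at -0.17 in LYVE1 cells. With no filter on low counts, TREM2 was at -0.0943 in GLUT1 cells, SPP1 at -0.0338 in CXCL10, -0.0832 in inflammatory and -0.0493 in cycling cells, and GPNMB at -0.0129 in inflammatory cells. Without the cells of highest UMIs, MT1G cells had 774 called genes, and SPP1 was at -0.0914 and APOC1 at -0.345 in CXCL10 cells, APOE at 0.205 in inflammatory cells, and SPP1 at -0.0507 and APOC1 at -0.0609 in cycling cells. Chosen after seeing the data, the LYVE1 gate's cells with LYVE1 UMIs gave 1504 called genes, with TREM2 at -2.78, SPP1 at -0.912, APOE at -2.93 and APOC1 at -4.94, fitted from few UMIs, and its cells with CCL18 UMIs gave 1397, with TREM2 at -1.11 and SPP1 at -0.314. The cause of these shifts was not tested in any setting. Of the members' values in states and monocytes, 201 kept direction and call, 29 lost the call, 10 gained it and 34 changed sign. The inflammatory gate could not be fitted after thinning or at doubled threshold. No paired analysis was possible because the treated and untreated hashtags mark different mice and share no pairing.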
